A study of Homo sapiens with 32 samples.

Results

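The list described here holds the positions at which an antibody against SP1 gave its highest signal in chromatin immunoprecipitation followed by sequencing (ChIP-seq), a method that recovers crosslinked DNA fragments with an antibody and sequences them. All 126181 summits on chromosomes 1 to 22 and X were taken, out of 126275 in the SP1 list and 288104 on those chromosomes in the 4 lists of the series. The cells were HEK293T, an established human embryonic kidney line, as the single clone HEK_CloneZD29, in which ZNF143 carries an inducible degron tag. The tag was present in every group, the untreated cells included. The labels of 4 untreated samples and of 4 samples given 50 nM dTAGV-1, the compound that triggers degradation of the tagged ZNF143, for 30 min all name the SP1 list. Which of them were pooled to call the summits is not given in the sources used here. It gives no value per sample, so treated and untreated cells were not compared, no replicate error could be computed, and read depth is unknown.

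SP1 is a zinc finger transcription factor that binds GC boxes, short G and C rich elements common in the promoters of widely expressed genes. Its relatives SP3 and SP4, and more distantly the KLF factors, recognise similar elements. NF-Y, which binds the CCAAT box, is a well known partner of GC boxes in promoters. Each summit carries a score, the authors' −log10 p-value or q-value for the signal, and which of these it is was not given in the sources used here. Scores grow with depth and were compared only within the SP1 list. They ran from 2.00 to 17292 with a median of 14.05 and quartiles of 5.60 and 55.6. Percentages are given with Wilson 95% intervals, which cover counting error over summits or genes and say nothing of the spread between samples.

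The sequences around some of the highest summits are shown first, because they differ in which element they hold. Each is the hg38 window reaching 50 bp either side of the summit. Capitals mark the GC box core GGGCGG and the CCAAT box (GCCAAT or ACCAAT), each searched on both strands. Promoters are written on the strand of the gene, 5′ to 3′, and are 5 of the highest-scoring promoters, followed by the highest of the 2 leading gene groups.
EVI5L, chr19:7829971-7830071, plus strand: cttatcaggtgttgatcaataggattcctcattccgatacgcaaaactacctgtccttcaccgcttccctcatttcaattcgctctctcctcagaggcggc
SP2, chr17:47896013-47896113, plus strand: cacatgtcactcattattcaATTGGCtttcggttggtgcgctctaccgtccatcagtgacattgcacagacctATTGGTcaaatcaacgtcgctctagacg
STK17A, chr7:43582954-43583054, plus strand: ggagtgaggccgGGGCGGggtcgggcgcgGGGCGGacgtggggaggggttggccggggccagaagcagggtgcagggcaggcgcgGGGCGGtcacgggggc
DNM2, chr19:10717798-10717898, plus strand: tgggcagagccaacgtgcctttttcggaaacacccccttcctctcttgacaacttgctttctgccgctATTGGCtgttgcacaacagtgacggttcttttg
TCF3, chr19:1652791-1652891, minus strand: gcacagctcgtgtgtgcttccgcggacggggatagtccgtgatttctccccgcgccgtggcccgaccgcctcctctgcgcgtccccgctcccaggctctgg
H2AC12, chr6:27146954-27147054, plus strand: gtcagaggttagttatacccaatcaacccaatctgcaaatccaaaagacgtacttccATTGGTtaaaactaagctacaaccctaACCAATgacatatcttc
SREBF2, chr22:41832923-41833023, plus strand: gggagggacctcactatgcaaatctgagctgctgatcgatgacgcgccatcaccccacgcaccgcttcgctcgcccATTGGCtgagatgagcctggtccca
The STK17A window held 3 GC box cores at a GC content of 82.2%. The other 6 windows held none. CCAAT boxes numbered 2 each at SP2 and H2AC12, and 1 each at DNM2 and SREBF2, with none at EVI5L, STK17A and TCF3.

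The next 4 windows are among the highest summits more than 10 kb from every protein-coding 5′ end. They are written on the plus strand of hg38 with the same capitals.
PCDH9 intron, chr13:66835324-66835424: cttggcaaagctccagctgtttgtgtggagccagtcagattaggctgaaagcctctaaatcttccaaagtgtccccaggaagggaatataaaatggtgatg
Near PLS3, chrX:115732463-115732563: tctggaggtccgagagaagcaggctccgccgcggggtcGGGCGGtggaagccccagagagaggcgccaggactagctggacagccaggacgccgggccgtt
GMDS intron, chr6:1667377-1667477: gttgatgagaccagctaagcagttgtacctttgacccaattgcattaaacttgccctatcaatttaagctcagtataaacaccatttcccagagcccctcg
GMDS intron, chr6:1809476-1809576: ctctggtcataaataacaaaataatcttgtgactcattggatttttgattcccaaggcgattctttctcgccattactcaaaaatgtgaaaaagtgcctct
The window near PLS3 held 1 GC box core, and the other 3 held neither element.

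Summits were placed by the GENCODE 44 protein-coding genes. The first class that applied was taken: up to 500 bp upstream of a gene's 5′ end, up to 500 bp downstream of it, first intron of the canonical transcript, other gene body, and intergenic. By number, most SP1 summits were outside promoters. Intergenic sequence held 45845 summits (36.3%, 36.1 to 36.6), the remaining gene body 41178 (32.6%, 32.4 to 32.9) and first introns 26760 (21.2%, 21.0 to 21.4). The upstream side of promoters held 7794 (6.18%, 6.05 to 6.31) and the downstream side 4604 (3.65%, 3.55 to 3.75). The upstream share was 11.4% with the 5′ ends of all transcripts and 11.1% in the top 50% by score. The downstream share was 6.11% in that top 50% and 6.60% with promoters of 1000 bp.

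Against the bases available, the order was the other way round. The upstream promoter side makes up 0.333% of the known genome sequence, so its share of summits was 18.6 times its share of bases. The downstream side was 11.9 times over, first introns 2.34 times, the remaining gene body 0.925 times and intergenic sequence 0.66 times. First introns fell from 21.2% to 14.6% of summits with 1 summit per peak, against 9.04% of bases. Within the remaining gene body, exons stood at 1.50 times and introns other than the first at 0.865 times. GC content moved with these classes: the median over 201 bp was 66.7% upstream and 69.7% downstream of the 5′ end, and 42.8% in each of the other 3 classes. Its part in the shares was not tested.

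**Figure D1:**
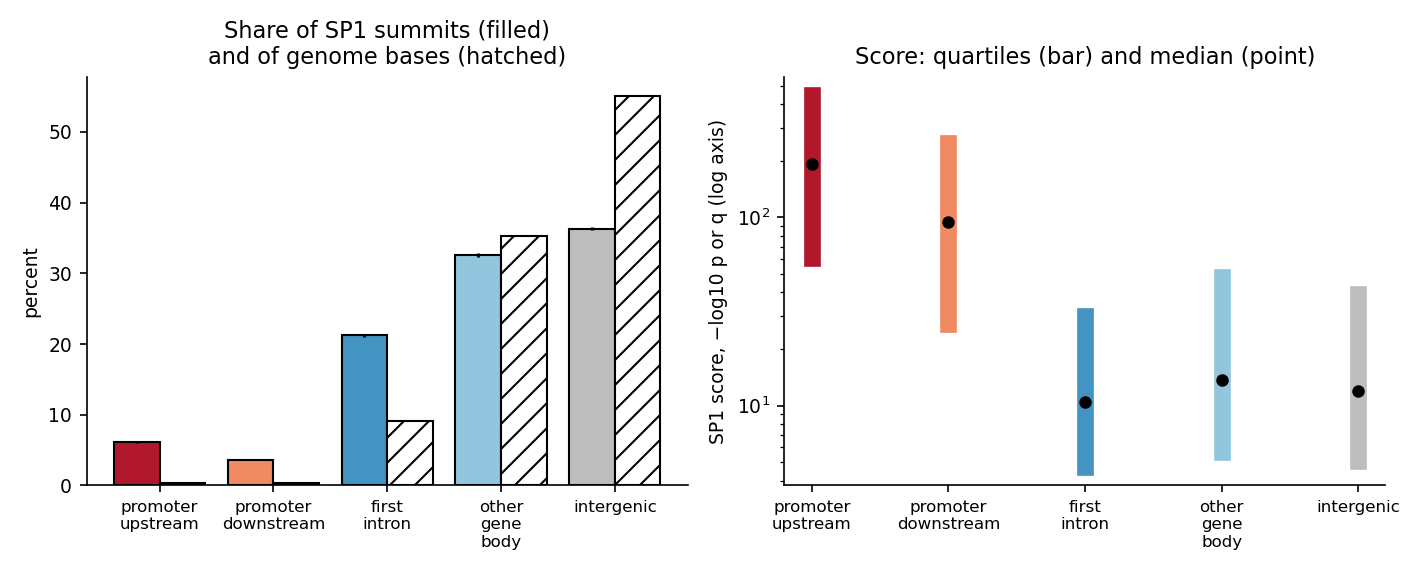
Left, percent of the 126181 SP1 summits (filled, with Wilson 95% intervals) and of known genome bases (hatched) in each location class; right, the middle 50% of SP1 scores (bar) and the median (point) on a log axis. Promoters hold few bases but 9.83% of summits, and their scores lie above those of the other classes, with medians of 192.6 upstream and 94.0 downstream.

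Promoter summits also scored highest. The median score was 192.6 (quartiles 60.5 and 444.4) upstream and 94.0 (27.0 and 247.2) downstream of the 5′ end. It was 13.7 in the remaining gene body, 11.9 in intergenic sequence and 10.4 in first introns, and the upper quartile of first introns, 29.7, lay below the lower quartile upstream of 5′ ends. When the list was divided into 10 equal parts by score, promoters rose from 1.57% of the lowest part to 37.4% of the highest. First introns went the other way, from 25.9% to 9.69%. High scores were not limited to promoters: 45.2% of the highest 10% lay more than 10 kb from every protein-coding 5′ end, against 62.7% of all summits.

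**Figure D2:**
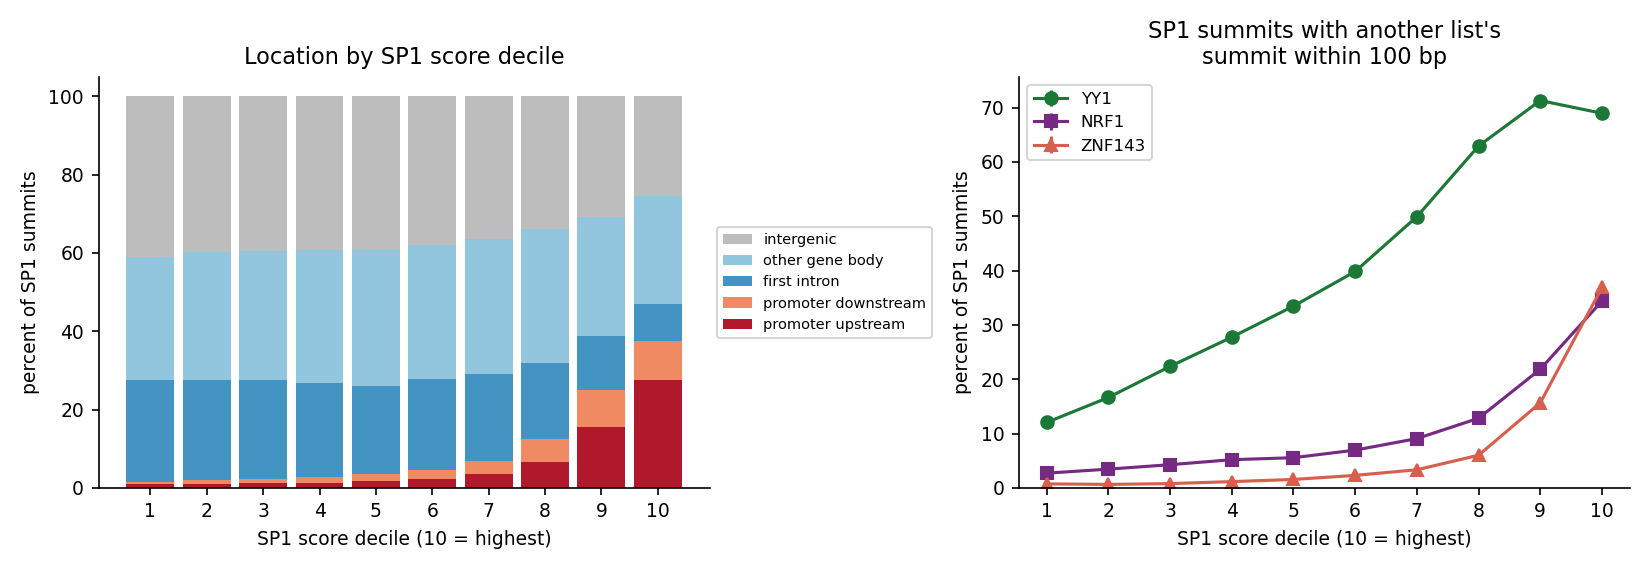
Left, location of SP1 summits in each score decile, from 1 (lowest) to 10 (highest); right, percent of SP1 summits in each decile with a summit of the YY1, NRF1 or ZNF143 list within 100 bp, with Wilson 95% intervals, most of which are smaller than the symbols. The promoter share reaches 37.4% in the highest decile, and the ZNF143 share rises from 0.729% to 36.9%.

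Within first introns the summits crowded towards the promoter. Distance was taken from the 5′ end of the gene holding the intron, the nearer one where first introns overlapped. Summits that share a peak were counted separately. There were 449.9 summits per Mb of first intron at 500 to 1000 bp, 437.7 at 1000 to 2000 bp and 200.3 at 2000 to 5000 bp. Density fell to 90.9 per Mb at 5000 to 10000 bp and to 45.6 per Mb beyond 100 kb. In the nearest set 18.9% had the GC box core, and in the farthest 2.94%. Median scores changed less, from 16.2 at 500 to 1000 bp through 7.90 at 2000 to 5000 bp to 13.7 beyond 100 kb. A first intron summit was found in 7051 of 18857 protein-coding genes with a first intron, and 570 genes with at least 10 such summits accounted for 35.1% of them. The largest numbers were in PDE4D, a cyclic AMP phosphodiesterase (94 summits in 677 kb), EXT1, a heparan sulfate polymerase (75 in 273 kb), AUTS2 (73 in 299 kb), SLC25A21, a mitochondrial carrier (72 in 297 kb), and MECOM, a zinc finger transcription factor (71 in 282 kb).

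Counted over whole gene spans, FOXP1, a forkhead transcription factor, held 199 summits in 629 kb. ENSG00000285708, an annotated gene that overlaps it on the same strand, held 214 in 795 kb. GMDS, an enzyme of GDP-fucose synthesis, held 179 in 622 kb, AUTS2 178 in 1195 kb and LRMDA 162 in 1129 kb. The genes were ranked by count, without regard to length. None of these 5 genes was in the highest 10% at its own 5′ end: GMDS scored 315.5 there, FOXP1 227.3, AUTS2 109.3 and ENSG00000285708 6.98, and LRMDA had no summit within 500 bp.

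Of the intergenic summits, 29.0% lay inside an lncRNA gene. The nearest start of a coding gene was within 10 kb for 20.1%, between 10 and 100 kb for 39.1%, and farther for 40.9%. The 5′ ends of lncRNA genes had a summit within 500 bp in 4517 of 18756 cases (24.1%), and in 15.3% of those at least 1000 bp away from coding gene starts. A summit was also within 500 bp of 226 of 1877 miRNA genes, 113 of 939 snoRNA genes, 125 of 1884 snRNA genes (6.63%) and 1.90% of processed pseudogenes.

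The position of SP1 relative to the 5′ end was compared with that of YY1, a zinc finger factor whose list is closest in length (106578 summits). For each gene the highest-scoring summit within 500 bp was taken. A summit shared between genes was counted for each of them, which for SP1 concerned 2531 genes. SP1 summits had a median position 38 bp upstream (offset −38, quartiles −109 and 57, 11807 genes), and 63.3% (62.4 to 64.1) were upstream. YY1 summits had a median offset of 60 bp downstream (quartiles −94 and 174, 11546 genes), and 38.3% (37.4 to 39.2) were upstream. The 150 bp just before the 5′ end held 46.8% of these SP1 summits and 19.2% of those of YY1. NRF1 (median −29) and ZNF143 (median −19) lay between them.

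Over all summits, the lists differed on the downstream side of promoters, which held 3.65% of SP1 and 7.23% of YY1 summits (odds ratio 0.486, 95% interval 0.468 to 0.504, Wald interval, two-sided Fisher's exact test, p below 1e-290). On the upstream side both lists had 6.18% (odds ratio 1.00, interval 0.967 to 1.03, exact adjusted p = 1). First introns held 21.2% of SP1 and 21.3% of YY1 summits (odds ratio 0.997, interval 0.977 to 1.02, exact adjusted p = 0.979), but the odds ratio was 0.945 with equal numbers of top-scoring summits (exact adjusted p = 1.38e-07). SP1 had slightly more in the remaining gene body (odds ratio 1.08, exact adjusted p = 3.12e-19) and in intergenic sequence (1.09, exact adjusted p = 7.60e-21). These tests compare positions in 2 lists, and summits that share a peak are counted separately although they are not independent. The upstream comparison depended on which summits were counted: the odds ratio was 1.17 with equal numbers of top-scoring summits and 1.45 with 1 summit per peak, but 0.916 with promoters of 1000 bp.

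**Figure D3:**
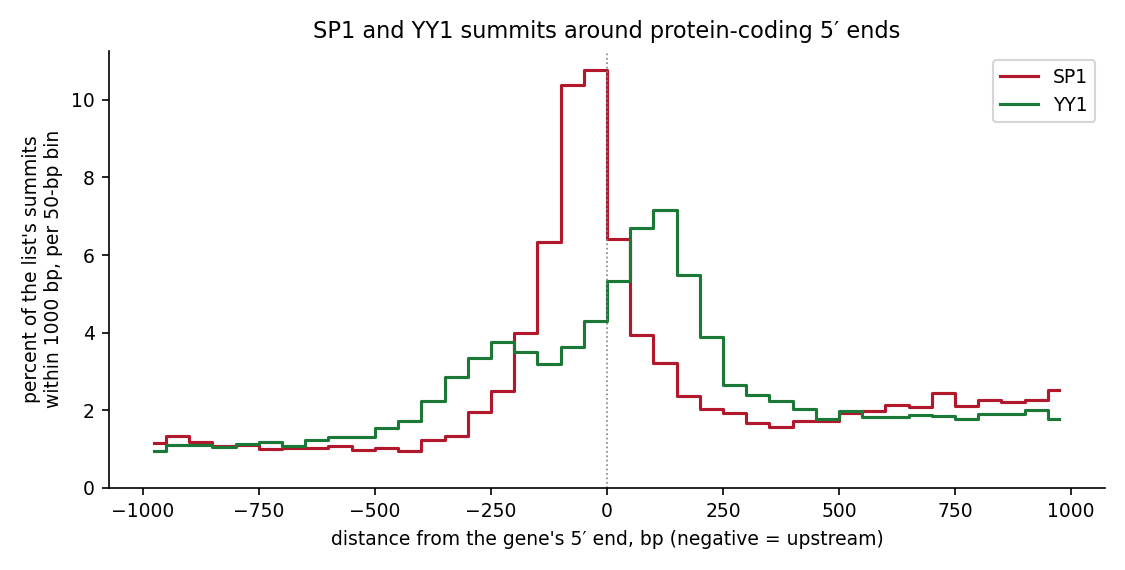
Percent of each list's summits up to 1000 bp from the 5′ ends of protein-coding genes, in 50-bp bins of distance from that end (negative is upstream), for SP1 and YY1. A summit in reach of several genes is counted once for each of them. SP1 is highest just upstream of the 5′ end, and YY1 is highest downstream of it with a lower rise upstream.

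The GC box core, the element SP1 is known to bind, was searched at the summits and beside them. In each class it was compared between the window of 50 bp either side of the summit and an equal window centred 400 bp to one side, by two-sided exact McNemar tests. Upstream of 5′ ends it was present at 44.8% of summits (43.7 to 45.9) and in 20.8% of flanks, a ratio of 2.16 (exact adjusted p = 4.87e-233). Downstream the shares were 37.0% and 23.6%, a ratio of 1.57 (exact adjusted p = 9.48e-46). Outside promoters the element was less frequent: 7.64% at summits in the remaining gene body (ratio 1.70, exact adjusted p = 1.58e-99), 5.34% in intergenic sequence (1.78, exact adjusted p = 2.55e-80) and 6.84% in first introns (1.20, exact adjusted p = 7.08e-09). With the flank 1000 bp away the first intron ratio was 0.991 (exact adjusted p = 0.778). In the other settings tried that ratio ran from 1.14, with windows of 100 bp either side, to 1.62, with 1 summit per peak. Over all classes, 9.995% of summits had the GC box core within 50 bp. The other lists were not searched against flanks, and flanks were not matched for GC content. The antibody label was therefore not tested by these ratios. Summits that share a peak were counted separately although they are not independent. With 1 summit per peak the ratios were 2.35 upstream, 1.89 downstream, 2.10 in the remaining gene body and 2.21 in intergenic sequence.

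Other elements were compared with all non-overlapping tiles of the same length and class. The GC box core was in 18.7% of upstream promoter tiles, and in 1.11% of intergenic tiles. Its share at summits was 2.40 times the tiles upstream of 5′ ends and 1.72 times downstream. Outside promoters it was 3.39 times the tiles in first introns, 4.64 in the remaining gene body and 4.81 in intergenic sequence. The CCAAT box of NF-Y in its GCCAAT form was at 14.3% of upstream summits and in 4.58% of tiles, 3.11 times as many. The CCGGAAG site of ETS factors was at 9.23% of upstream summits (4.06 times the tiles), and the cyclic AMP response element TGACGTCA at 2.14% (5.24 times). The AP-1 site TGANTCA of JUN and FOS was below the tiles upstream of 5′ ends (0.6 times) and above them in intergenic sequence (1.74 times). The site of CTCF, a zinc finger protein at insulators and loop anchors, was at 1.54% of intergenic summits, 48.9 times the tiles, and at 1.40% of summits in the remaining gene body, 36.7 times. All elements were searched on both strands, a short motif can overlap another, and a match is a description of the letters only.

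These elements followed the score differently. At promoters the GC box core rose from 17.2% of summits in the lowest score decile to 47.8% in the highest. The CCAAT box, in either form, was at 3.54% in the lowest, 6.72% in decile 8 and 26.9% in the highest decile. Outside promoters the CTCF site was most frequent in the middle of the range, at 2.20% in decile 5, and was at 0.127% in the highest decile.

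**Figure D4:**
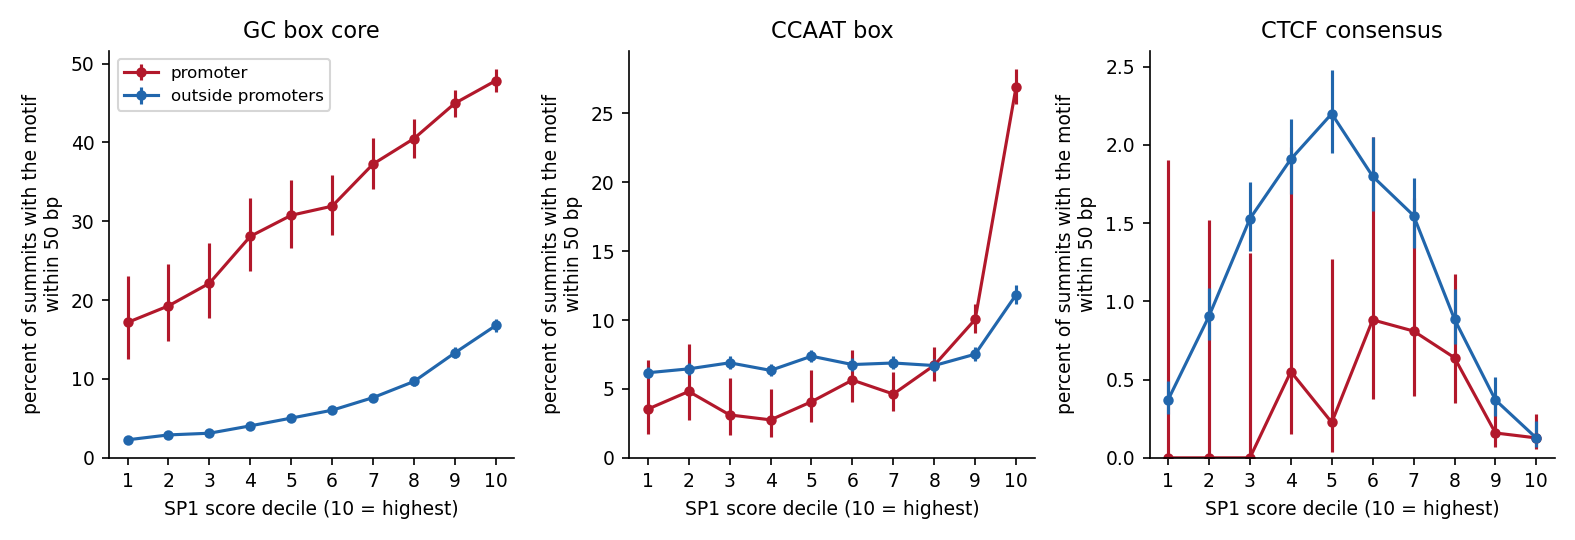
Percent of SP1 summits with the GC box core, the CCAAT box (either form) or the CTCF consensus within 50 bp, by score decile, at promoters and outside them, with Wilson 95% intervals. The GC box core rises across the range, the CCAAT box rises mainly in the 2 highest deciles at promoters, and the CTCF consensus outside promoters peaks at 2.20% in decile 5.

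A YY1 summit lay within 100 bp of 51083 SP1 summits (40.5%), an NRF1 summit of 13392 (10.6%) and a ZNF143 summit of 8702 (6.90%). The YY1 share ran from 37.7% in first introns to 57.5% downstream of 5′ ends. The ZNF143 share went from 3.24% in first introns to 32.9% upstream of 5′ ends, and the NRF1 share from 6.51% in intergenic sequence to 42.3% upstream. Upstream summits with none of the other factors nearby had a median SP1 score of 101.2, and those with all 3 nearby 336.7.

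Of the 1000 highest SP1 summits, 66.8% had a ZNF143 summit within 100 bp, against 6.90% of all summits. A YY1 summit was near 70.0%, against 40.5%, and the GC box core was at 21.9%, against 9.995%. Their location was mixed, with 329 at promoters and 503 more than 10 kb from every protein-coding 5′ end. The 329 at promoters had the GC box core in 41.0% and the CCAAT box in 48.6%, against 41.9% and 14.7% of all promoter summits. The 503 distant ones had a median GC content of 41.8%. Of these, 8.95% had the GC box core, against 4.56% of all summits more than 10 kb away, and 8.15% the CCAAT box, against 7.13%. A ZNF143 summit was near 79.5% of the distant ones, against 3.75% of all summits more than 10 kb away, and a YY1 summit near 86.5%, against 38.8%. The ZNF143 consensus itself, searched after the values were seen, was in 0.6% of the 1000 windows, against 0.486% of all summits. Among the highest 10% of SP1 summits with a ZNF143 summit within 100 bp, it was in 2.47%. This spelling was rare even there, so its low share cannot show whether ZNF143 sequence is absent.

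Among individual distant sites, the highest score in the list, 17292, was on chromosome 8 at 37302871, 392.9 kb upstream of ZNF703. Summits of 13563 at 37360716 and 12150.2 at 37393203 followed on the same side of the gene. All 3 had YY1, NRF1 and ZNF143 summits within 117 bp and a GC content of 32.8% to 38.8%. The next were in an intron of PCDH9, a protocadherin, on chromosome 13 (66835374, score 11336, GC content 48.3%) and in an lncRNA gene on chromosome X (115732513, score 11326), 171.3 kb from the 5′ end of PLS3, an actin-bundling protein. The X site had a GC content of 71.1% and the GC box core, with ZNF143 60 bp away but YY1 11556 bp away. In the body of GMDS, 2 summits scored 8766 and 7909, and in the first intron of CNTNAP2, a neurexin family member, 2 scored 7146 and 6316. SORCS1 had a first intron summit of 6668, and HYAL2, with 8125, had the highest of that class at 1161 bp from its 5′ end. A further body summit was in STAP2 (7424), and a further first intron one in TSC22D3 (6330).

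Some such sites lay close together. Of 1175 summits with a score of at least 1000 and at a distance above 10 kb from the nearest coding gene start, 67 fell in 5 intervals of 500 kb holding at least 10 each, and the 1175 were spread over 757 intervals. The 5 were on chromosome X at 115.7 to 115.9 Mb with 21, on chromosome 8 with 13 and 10 in neighbouring intervals, on chromosome 17 around CCDC200 with 13 and on chromosome 5 around ZNF608 with 10. The density of summits beyond 10 kb also differed between whole chromosomes, from 17.1 per Mb on chromosome 2 to 37.0 on chromosome 6 for SP1, and for YY1 it was 11.8 and 28.0 on the same chromosomes. The copy number of these regions in HEK293T, which bears on regional counts and scores, was not analysed here. Repeated sequence in them, at which reads may not be placed uniquely, was not analysed either.

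Peaks with many summits marked extended regions. Of 79306 peaks, 55936 had 1 summit, and 321 had at least 10, with 4224 summits in all. The largest covered 62.7 kb of the HOXA cluster on chromosome 7, genes that set position along the body axis. It had 78 SP1, 89 YY1, 26 NRF1 and 23 ZNF143 summits. Others overlapped OVOL2, MGME1 and SNX5 (32 summits), NR2F2 (31), BCOR (29), ZIC2 and ZIC5 (28), TSC22D3 (27), and CBX5 and HNRNPA1 (24). Some of the largest, not all of them named here, overlapped no protein-coding gene, among them a peak of 28 summits on chromosome 15 that scored at most 15.7. Another such peak on chromosome X at 115844212 to 115888292 had 34 SP1 and 28 ZNF143 summits, and 0 of YY1 and NRF1.

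Genes were then ranked by their highest SP1 score within 500 bp of the 5′ end. A summit was found at 11807 of 19970 protein-coding genes (59.1%), with a median score of 197.1 among them and 34.1 over all genes at 0 where there was none. With the 5′ ends of all transcripts, 13576 genes (68.0%) had a summit and the median over all genes was 87.5, against 1462 for histones and 1453 for cholesterol genes counted in the same way. A score of 596.6 or more put a gene among the highest 10.0%. At 2531 genes that summit was also the highest within 500 bp of another gene's 5′ end.

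The highest promoter score, 15383, was at LYNX1, a modulator of nicotinic receptors, 406 bp downstream of its 5′ end. EVI5L followed with 12429, SP2 with 11837, ENSG00000289491 within ZNF689 with 11302, and STK17A, a kinase, with 9654. Below them were DNM2, a dynamin (8818), TCF3, an E protein (8636), ARRDC4, an arrestin family member (8609), and SYPL1 (7460). TLE4 (7381), PRR14 (7105), TBL1X (6723), TEPSIN (6675) and SMARCD2, a subunit of chromatin remodelling complexes (6656) were also among the highest 15. Of these 15, LYNX1, STK17A and SYPL1 had summits 193 to 406 bp downstream of the 5′ end with a GC content of 79.6% to 81.6% and a GC box core, and the nearest ZNF143 summit was at least 38195 bp away. The other 12 had a GC content of 50.7% to 65.2%, 2 of them a GC box core, and 8 a ZNF143 summit within 100 bp.

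The 37 gene groups examined are described by their counts and medians, beside the 59.1% of all genes with a summit and the 10.0% of all genes that the score of 596.6 sets apart as the highest 10%. The replication-dependent histones, which supply chromatin during S phase, were highest. A summit was present at 54 of 69 genes (78.3%), 44 of 69 (63.8%) were in the highest 10% and the median was 1462, against 34.1 over all genes. H2AC12 and H2BC12, which share a promoter, were highest at 5013, H3C4 was lowest at 11.9, and H1-1 and H1-5 had none. The 54 genes rested on 42 distinct summits, with shared summits mostly between neighbouring H2A and H2B genes. By type, medians were 2425 for the 17 H2A genes, 2028 for the 18 H2B, 1016 for the 15 H4, 759.8 for the 13 H3 and 51.9 for the 6 H1 genes. The CCAAT box was at 14 of 16 H2A and 11 of 14 H2B summits and at 0 of 11 for H4, and the GC box core at 5 of 11 for H4 and 0 of 16 for H2A. Histone genes have near-identical copies, so reads could be split between them.

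Genes of cholesterol synthesis and uptake came next, with a summit at 23 of 26 (88.5%), 15 of 26 (57.7%) in the highest 10% and a median of 1155. SREBF2, the factor that drives the pathway, was highest at 6037. MSMO1 (3683), HMGCS1, which makes the precursor HMG-CoA (2832), FDPS (2788) and MVD (2461) followed, and SREBF1 was lowest at 110.3. The CCAAT box was at 15 of the 23 summits (65.2%), against 16.9% over all genes with a summit, and the GC box core at 8 of 23 (34.8%), against 43.4%.

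The next medians were those of several groups of basic cell functions. The CCT chaperonin had a median of 469.2 (9 of 9 genes with a summit), aminoacyl-tRNA synthetases 421.3 (32 of 35), cytosolic ribosomal proteins 413.3 (71 of 80), RNA polymerase subunits 393.0 (27 of 31) and DNA replication genes 337.4 (33 of 40). In these groups the highest were CCT5 (776.1), TARS2 (2694), RPS12 (3448), POLR1G (6440) and CDC45 (2237), and the lowest CCT3 (2.85), VARS1 (9.14), RPS18 (38.0), POLR3GL (144.96) and RFC4 (7.38). A ZNF143 summit lay within 100 bp of 53 of the 71 ribosomal protein summits (74.6%), against 9 of 54 histone and 6 of 23 cholesterol gene summits and 36.1% of all genes with one. Kinetochore genes (median 318.2), E2F factors and their partners (302.7), nucleoporins (301.2), translation initiation factors (294.7), the proteasome (271.4) and mitochondrial ribosomal proteins (271.2) were close behind. Other groups of basic functions were lower, with 193.4 for heat shock proteins, 193.0 for respiratory complex I, 167.1 for ubiquitin-conjugating enzymes, 131.5 for the vacuolar proton pump, 95.9 for RAB GTPases and 45.5 for tubulins. When SP1 summits within 100 bp of ZNF143 were left out, an alternative chosen after seeing the data, the median was 0 over all genes, 666.6 for histones and 413.9 for cholesterol genes. It was 70.4 for kinetochore genes, 18.6 for E2F factors, 5.37 for RAB GTPases, 3.69 for tubulins and 0 for each other group of basic functions named here. A summit remained at 7929 of 19970 genes, 45 of 69 histone, 17 of 26 cholesterol and 19 of 80 ribosomal protein genes. Groups with more summits near ZNF143 lose more by this rule, so these medians are no result separate from the ZNF143 shares.

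HOX genes had a median of 246.0 with 33 of 39 carrying a summit, HOXB9 highest at 2297 and HOXC12 lowest at 6.96. Among zinc finger genes on chromosome 19, 11 of 249 (4.42%) were in the highest 10%, below the 10.0% of all genes. Their median of 98.7 was above the 34.1 of all genes, and 174 of 249 (69.9%) had a summit, against 59.1%. Solute carriers had one at 164 of 341 (48.1%), collagens at 19 of 44 with 0 in the highest 10%, potassium channels at 38 of 96 and cytochrome P450 genes at 17 of 56. In the last of these, CYP51A1, which also belongs to cholesterol synthesis, was highest at 2397.

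Families used in few cell types had few summits. One was found at 1 of 416 olfactory receptor genes (OR1F1, 182.5), 4 of 149 keratin and keratin-associated genes, 1 of 27 taste receptors (TAS2R14), 4 of 53 clustered protocadherins, 6 of 41 chemokines, 0 of 22 interferons and 0 of 40 beta-defensins. Members of several of these families are near-identical copies, at which reads may not be placed uniquely.

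**Figure D5:**
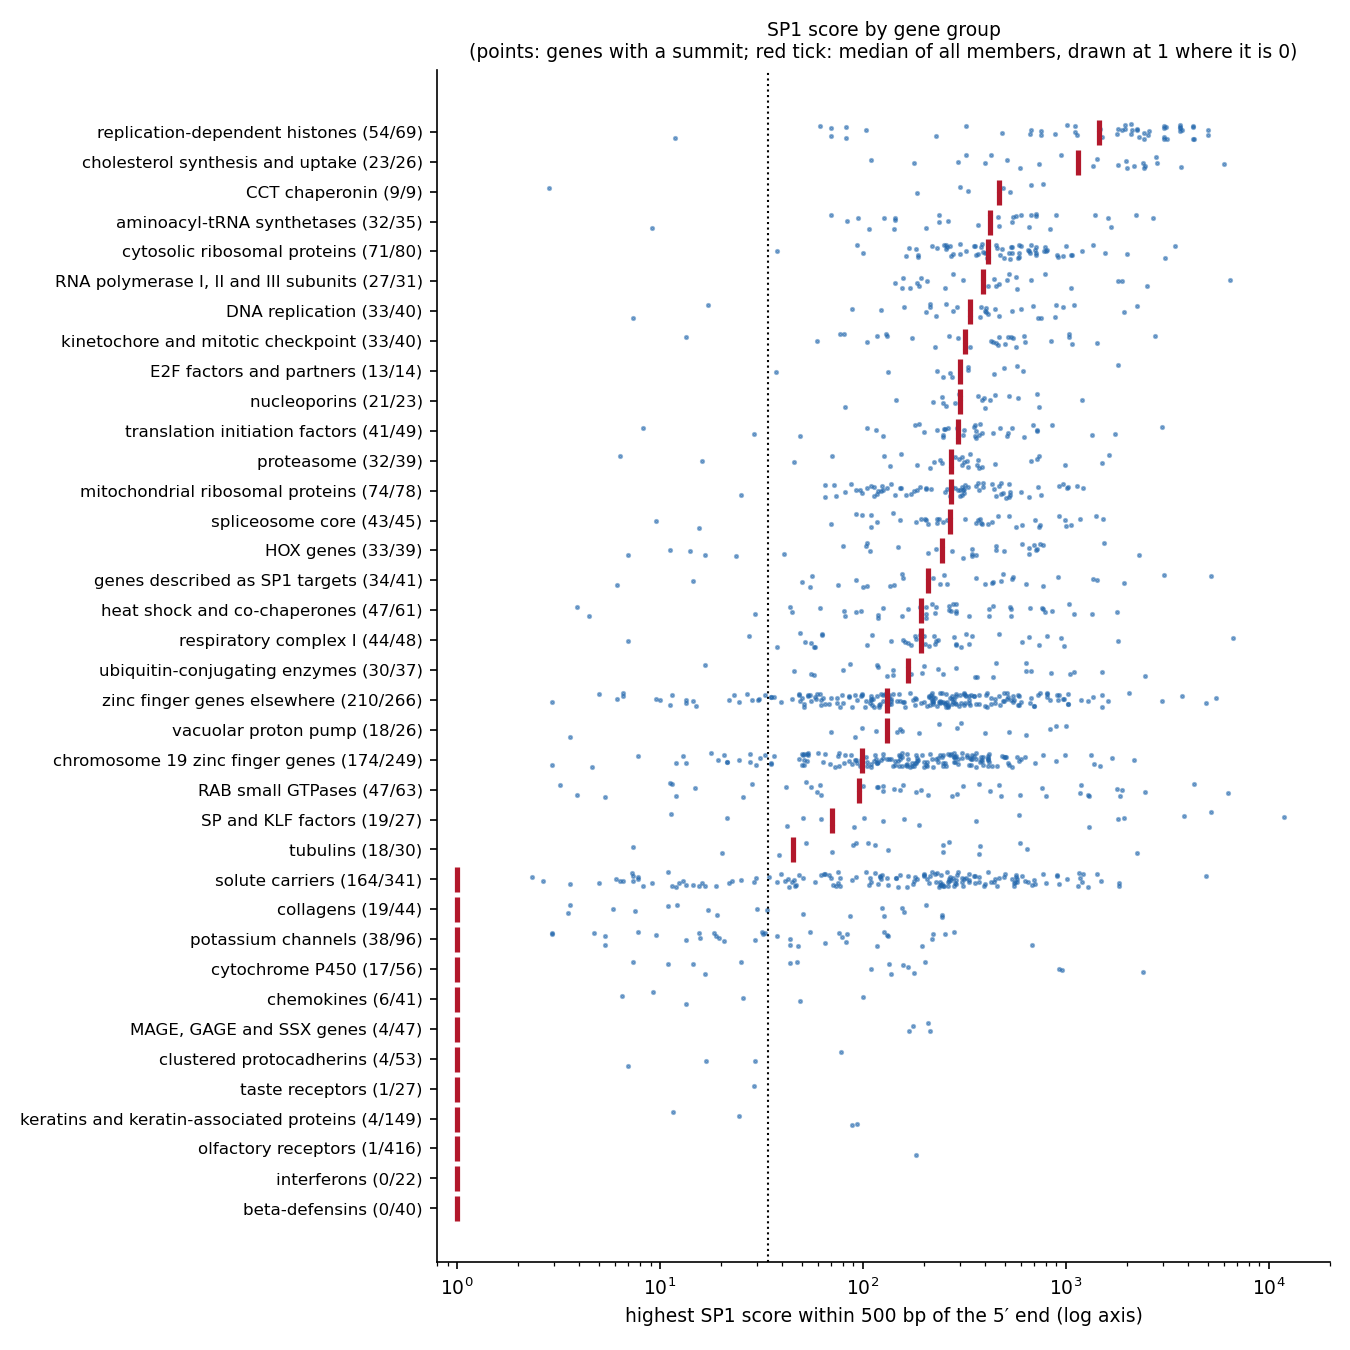
Highest SP1 score within 500 bp of the 5′ end on a log axis, by gene group, with the number of genes with a summit over all members. Points are genes with a summit, the red tick is the median over all members (drawn at 1 where it is 0) and the dotted line is the median over all protein-coding genes, 34.1; histone and cholesterol genes lie farthest to the right.

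Genes described as SP1 targets, a list of textbook examples, had a summit at 34 of 41 (82.9%), 8 of 41 (19.5%) in the highest 10% and a median of 208.5. SP1 itself was highest at 5220, with its summit at an offset of −347 bp. HDAC1, a histone deacetylase, scored 3054, KLF6 1944, SOD2 1424 and thymidine kinase TK1 917.3. VEGFA scored 490.1 and CDKN1A 141.8. EGFR (14.6) and TERT, the telomerase subunit (6.15), were lowest. CDKN1B and CTSB had none at the gene's own 5′ end, although CDKN1B scored 1753 at another transcript start. The GC box core was at 17 of the 34 summits (50.0%), against 43.4% over all genes with a summit.

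The genes of the factors themselves ranged widely. Among 19970 genes SP2 ranked 3 (11837) and SP1 ranked 30 (5220). SP4 scored 587.1, SP3 362.7, SP8 190.3, SP9 70.6, SP7 62.1 and SP5 21.4, and SP6 had none. ZNF143 ranked 27 with 5484, its summit 496 bp downstream of the 5′ end and so near the edge of the window. YY1 scored 345.8 and NRF1 109.1.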

How the data were processed

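The deposited files were 4 lists of ChIP-seq summits, 1 per antibody, each line with a position, a peak name and a score. From the values and layout, the score the authors deposited is a −log10 p-value or q-value. Per the submitters' processing notes, cutadapt, Bowtie2, SAMtools 1.16.1, MACS3 and bedtools were used with hg38; their roles, order and settings are not given in the sources used here. The descriptions of all 8 SP1 samples name the SP1 list, per the labels. The YY1 and NRF1 lists were matched by the antibody in their names. Groups were taken from the sample titles (32 samples, 10 groups). The mock samples were not used here. The list skips 1315 peak numbers.

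Summits on chromosomes 1 to 22 and X were placed by GENCODE 44 with Python 3.11.15, numpy 2.4.6, pandas 2.3.3, scipy 1.17.1 and statsmodels 0.14.6, on hg38 sequence. Promoters were 500 bp either side of a gene's 5′ end, motif windows 50 bp and GC windows 100 bp either side of the summit, and nearby summits within 100 bp. Two-sided exact Fisher and McNemar tests were adjusted by Benjamini-Hochberg over 5 classes at 0.05, with p floored at 1e-290. Sequences shown are among the highest-scoring windows, leaving out genes without a symbol and one chromosome whose sequence is not reported. Scripts were tested on simulated data. No resampling over summits was done.

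Named genes were the 15 highest promoters, the 5 highest summits per other class and beyond 10 kb, the highest, lowest and up to 2 bare members of each group, the 5 genes with most summits, the SP genes, described SP1 targets, and the other factors' genes. Some genes that this rule names are not reported here. Others were chosen after their values were seen: MSMO1, HMGCS1, FDPS, MVD, CYP51A1, the most filled first introns, and the regions of large or clustered peaks. The members and gene lists were chosen with earlier results of these data known. One gene pattern was corrected and 1 motif (ZNF143) added after the data were seen.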

Additional observations from a re-analysis of the deposited data

Results flagged for a closer look

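The SP1 list held 94 summits outside chromosomes 1 to 22 and X (0.0744% of 126275), which none of the comparisons used. Their scores ran from 2.07 to 973.4 with a median of 24.2. They are given because they lie outside the chromosomes described. How many to expect there is not known, so the number was not compared with anything.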

How the results depend on the processing

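Summit shares depended on the definitions, as percent of summits upstream of 5′ ends, downstream, in first introns, in the remaining gene body and in intergenic sequence. Promoters of 250 bp gave 5.18, 2.54, 21.7, 33.5 and 37.0, and of 1000 bp 7.86, 6.60, 19.1, 31.2 and 35.2. The top 50% by score gave 11.1, 6.11, 17.7, 32.2 and 33.0, and 1 summit per peak 7.83, 3.81, 14.6, 34.2 and 39.6. Adding lncRNA genes gave 8.11, 4.34, 26.4, 35.9 and 25.2. All transcript 5′ ends moved the upstream, first intron and gene body shares to 11.4, 19.1 and 29.3, and first introns of any transcript gave 31.3 for that class and 22.6 for the gene body. The YY1 share near SP1 was 29.1% within 50 bp, 54.1% within 250 bp and 41.5% in the top 50% of each list, the NRF1 share 5.82%, 19.7% and 12.6%, and the ZNF143 share 4.81%, 9.34% and 7.16%. Against YY1, the upstream odds ratio was 1.17 with equal numbers of top-scoring summits, 1.45 with 1 summit per peak and 0.916 with 1000-bp promoters, and the first intron odds ratio 0.945 with equal numbers and 1.005 with 1000-bp promoters. The GC box core ratio in first introns was 0.991 with flanks 1000 bp away. The other 34 GC box values kept their direction and side of the threshold. For these changes the cause was not tested.

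After seeing the data, summits with a ZNF143 summit within 100 bp were left out: the median was 666.6 for histones and 413.9 for cholesterol genes, against 0 over all genes, and 0 for the cytosolic ribosomal proteins, which had 413.3 with them. These medians are no result separate from the share of each group's summits near ZNF143.

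No paired analysis was possible because the list carries no value per sample, and no replicate was left out, since the list holds none. Depth is unknown, and a gene without a summit is only one with none in this list.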
